A study of Mus musculus with 4 samples.

Results

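The genes described here are 9 genes of muscle stem cells and of the transcription factors that build muscle. They are *Pax7* and *Cdh15*, the 4 myogenic regulatory factor genes *Myf5*, *Myod1*, *Myog* and *Myf6*, and the MEF2 factor genes *Mef2a*, *Mef2c* and *Mef2d*. They were chosen by name, and each of the 9 symbols stood on a single row of a table of 37305 rows. Messenger RNA of mouse muscle, labelled GTN muscle, of the strain C57BL/6 was sequenced in 2 genotype groups, MCK-TD (libraries A and B) and Con-TD (libraries F and G). The labels expand none of these abbreviations, name no altered gene, promoter or Cre driver, and give no treatment, time or age. Nothing in them states that each library is a different animal. The p-values below therefore speak only of library-to-library spread, possibly technical, and a difference in handling between the groups and the genotype cannot be told apart. With no altered gene named, no check of a targeted gene was possible.

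Levels are given in FPKM as deposited, that is, fragments scaled to transcript length and to the mapped total of each library. The absolute depth is unknown. Relative to Con-TD F, the depth of the other libraries lay between 0.934 and 0.955. Mitochondrial rows held 63.0% and 65.0% of the summed FPKM in MCK-TD, against 72.1% and 73.7% in Con-TD. With mitochondrial and small RNA rows removed, the top 20 rows held 35.3% and 37.5% of the remaining FPKM in MCK-TD, against 47.4% and 42.9% in Con-TD. The part of these shares in the results was not tested. The tissue label was checked against 10 fibre markers, all of them present. Of these 10, 8 fell and 0 rose in MCK-TD by the test described below, against 6.45% and 24.3% of all rows tested. The marker *Mb*, named after its values were seen, did not pass but lay higher in MCK-TD. It was at 3940 and 2325 FPKM in MCK-TD, against 1044 and 1900.5 FPKM in Con-TD (log2 change 1.10, limma adjusted p = 0.111). The fast-fibre troponin gene *Tnnt3* averaged 17317 ± 1275 FPKM in MCK-TD and 25769 ± 1787 FPKM in Con-TD, and the skeletal actin gene *Acta1* averaged 12010 ± 326 FPKM in MCK-TD and 17781 ± 980.1 FPKM in Con-TD (SD, n = 2 per group here and below).

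Satellite cells are the stem cells that lie between a muscle fibre and its basal lamina, and PAX7 is the transcription factor that marks them. When they are activated, MYF5 and MYOD commit them to the muscle lineage, myogenin drives their differentiation, and MRF4, the product of *Myf6*, is made mainly in mature fibres. These basic helix-loop-helix factors bind the E-box, a short DNA motif written CANNTG, together with E proteins. MEF2 proteins bind an A/T-rich site beside them and are held in check by class IIa histone deacetylases. In adult muscle myogenin is also known to rise in fibres that lose their nerve.

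Upstream sequences of *Myog* and *Mef2c* are shown because these genes rose in MCK-TD and stood in the RefSeq promoter table used here (build GRCm38.p6), which held 7 of the 9 genes. *Myod1* and *Myf6* had no entry. Each window is the 250 bases before an annotated start, written 5′ to 3′ on the gene's own strand, the plus strand for both genes. Capitals mark the E-box CANNTG and an A/T-rich core of the MEF2 site (TA, then A or T at each of 4 places, then TA), both searched on both strands. *Myog* lies at chr1:134289754-134290003, and the 3 *Mef2c* windows at chr13:83503784-83504033, chr13:83523406-83523655 and chr13:83573357-83573606.
Myog: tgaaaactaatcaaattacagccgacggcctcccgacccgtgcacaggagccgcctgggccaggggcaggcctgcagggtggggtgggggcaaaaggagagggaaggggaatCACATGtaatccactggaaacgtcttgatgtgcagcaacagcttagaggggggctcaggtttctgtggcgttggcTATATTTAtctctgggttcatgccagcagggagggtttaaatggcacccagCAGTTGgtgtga
Mef2c start 1: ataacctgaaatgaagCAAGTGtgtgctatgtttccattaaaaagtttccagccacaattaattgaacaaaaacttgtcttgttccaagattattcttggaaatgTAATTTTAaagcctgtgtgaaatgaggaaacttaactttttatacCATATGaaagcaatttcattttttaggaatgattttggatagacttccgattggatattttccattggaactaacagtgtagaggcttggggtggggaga
Mef2c start 2: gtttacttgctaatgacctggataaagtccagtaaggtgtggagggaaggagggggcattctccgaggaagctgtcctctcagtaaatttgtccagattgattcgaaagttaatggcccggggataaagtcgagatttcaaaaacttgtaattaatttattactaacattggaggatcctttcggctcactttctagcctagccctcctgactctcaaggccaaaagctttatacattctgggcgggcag
Mef2c start 3: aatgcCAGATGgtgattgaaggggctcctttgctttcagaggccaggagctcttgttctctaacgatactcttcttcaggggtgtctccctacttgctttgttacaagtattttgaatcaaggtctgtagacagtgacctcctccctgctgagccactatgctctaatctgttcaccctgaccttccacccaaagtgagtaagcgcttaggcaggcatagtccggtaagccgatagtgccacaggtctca

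The *Myog* window held an E-box at bases -138 to -133 before the start, another at -12 to -7, and a MEF2 core at -63 to -56. The first *Mef2c* window held 2 E-boxes and 1 MEF2 core, the second held none of either, and the third held 1 E-box. E-boxes are common, with at least 1 in 66.2% of 32851 promoter windows of this length, while 8.6% held the MEF2 core. The core was added to the search after the windows had been read. The stricter MEF2 site, found in 2.9% of all windows, the SRF-binding CArG box, found in 1.5%, and the E-box CAGCTG, found in 13.0%, had no match in the windows of any of the 7 genes. The windows of *Pax7*, *Myf5*, *Mef2a* and *Mef2d* held neither an E-box nor a MEF2 core, and that of *Cdh15* held 3 E-boxes. A match is a description of the letters and no evidence of binding.

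Of the 9 genes, 8 passed the filter of a mean of at least 1 FPKM and were tested, and *Pax7* lay under it. *Myog*, *Myf6*, *Mef2c* and *Myod1* rose in MCK-TD, and 4 tested genes, *Mef2d*, *Myf5*, *Cdh15* and *Mef2a*, did not pass. A gene was called at a limma adjusted p under 0.05 on log2(FPKM + 1), a scale that understates the change of low genes. Over all 12474 rows tested, 30.8% were called, 24.3% higher and 6.45% lower in MCK-TD. Both libraries of MCK-TD lay above both of Con-TD for 7 of the 9 genes and below them for 0. Of all rows tested the groups did not overlap in 72.0%, with MCK-TD above in 50.7% and below in 21.3%. The median log2 change of the 8 tested genes was 0.66, against 0.22 over all rows.

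**Figure D1:**
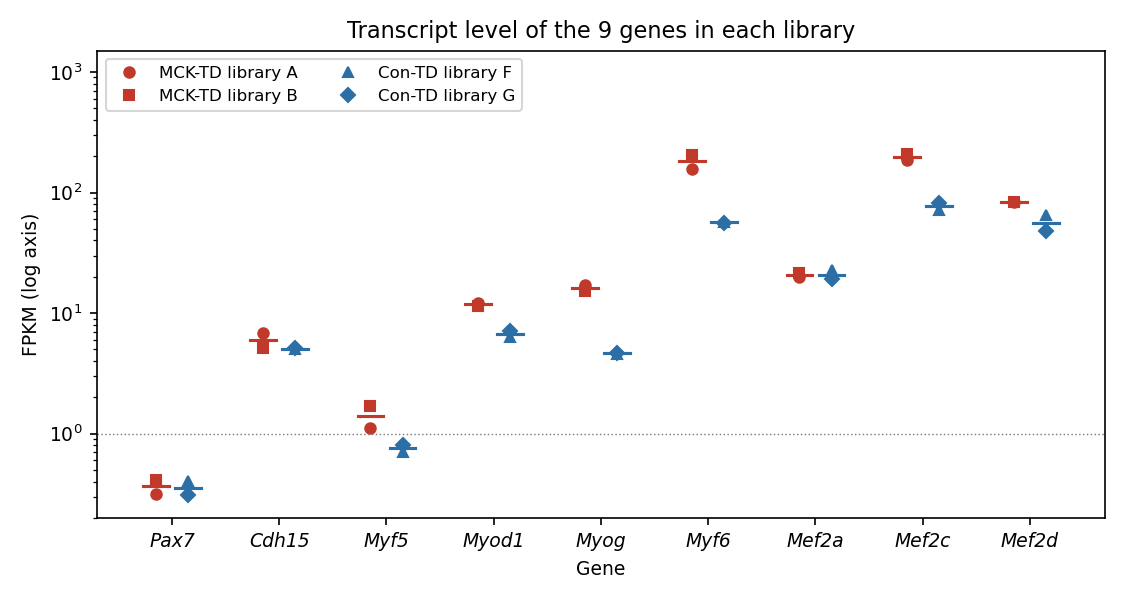
FPKM of the 9 genes (log axis) in each library, with MCK-TD in red left of Con-TD in blue. Horizontal bars are means of 2 libraries and the dotted line is the filter at 1 FPKM. The MCK-TD libraries stand apart from those of Con-TD for *Myog*, *Myf6* and *Mef2c*, and the groups overlap for *Pax7* and *Mef2a*.

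*Pax7* was the lowest of the 9 genes in both groups. It was at 0.316 and 0.412 FPKM in the MCK-TD libraries, against 0.404 and 0.307 FPKM in the Con-TD libraries. The groups overlapped, and their means were 0.364 ± 0.0683 FPKM in MCK-TD and 0.356 ± 0.0689 FPKM in Con-TD. Fitted without a filter, the log2 change was 0.01 (limma adjusted p = 0.969), a value that the added 1 in the log scale holds near 0 for so low a gene. In whole muscle, fewer cells of a type and less RNA per cell cannot be told apart.

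*Cdh15* encodes M-cadherin, the adhesion molecule between a satellite cell and its fibre. Its level was 6.77 and 5.14 FPKM in MCK-TD, against 5.01 and 5.09 FPKM in Con-TD. MCK-TD B lay just above both Con-TD libraries and MCK-TD A higher. The log2 change of 0.19 did not pass (95% interval -0.23 to 0.61, limma adjusted p = 0.380), so a change of up to 0.61 is within these data. The direction turned with the scaling, to -0.12 under quantile normalization and -0.027 when scaled by the median of ratios. The within-library ratio of *Pax7* to *Cdh15*, which a single scaling factor per library cannot alter, was 0.0466 and 0.0802 in MCK-TD, against 0.0807 and 0.0603 in Con-TD, and overlapped.

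The 19 other satellite cell markers on the list moved in both directions. Of the 13 that were tested 4 rose and 1 fell, where 24.3% of all rows were called higher and 6.45% lower. The median log2 change of the 13 was 0.05. It turned to -0.10 when scaled by the median of ratios and to -0.20 under quantile normalization. Of all 19, those under the filter included, MCK-TD lay above Con-TD without overlap in 7 and below in 9. Over all rows tested, the shares without overlap were 50.7% above and 21.3% below. Rows under the filter are not part of these shares. The 4 markers that rose were the laminin receptor *Itga7*, the intermediate filament gene *Des*, the heparan sulfate proteoglycan *Sdc4* and the chemokine receptor *Cxcr4*. *Itga7* was at 27.1 and 32.9 FPKM in MCK-TD, against 9.39 and 11.7 FPKM in Con-TD (log2 change 1.43, SE 0.16, limma adjusted p = 0.0114). Muscle fibres also make *Itga7* and *Des*, and leukocytes make *Cxcr4*. *Cxcr4* was at 2.88 and 1.92 FPKM in MCK-TD, against 0.701 and 0.694 FPKM in Con-TD, and missed the threshold with quantile normalization (limma adjusted p = 0.0700). *Cd34*, which endothelial cells and fibro-adipogenic progenitors share with satellite cells, fell to 9.06 and 6.97 FPKM in MCK-TD, against 14.3 and 19.8 FPKM in Con-TD.

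None of the 7 tested Notch pathway genes, which keep satellite cells quiescent, was called by limma, and 1 of them had an unadjusted p under 0.05. With a pseudocount of 0.1 or with robust empirical Bayes, 1 was called higher. Of all 16 listed, with most under the filter, the groups did not overlap in 9, of which 7 were lower and 2 higher in MCK-TD. *Notch1*, *Notch3* and *Hey1*, named after their values were seen, are also counted among the satellite cell markers that lay lower. Over all rows tested the groups did not overlap in 72.0%, with MCK-TD lower in 21.3% and higher in 50.7%. Those shares leave out rows under the filter. The tested gene with an unadjusted p under 0.05 was the ligand *Dll1*. It was at 2.33 and 3.22 FPKM in MCK-TD, against 1.23 and 1.498 FPKM in Con-TD (limma adjusted p = 0.0596). The ligand *Jag2* was at 2.73 and 2.38 FPKM in MCK-TD, against 3.09 and 3.24 FPKM in Con-TD (limma adjusted p = 0.229). Their levels lay apart between the groups, in opposite directions.

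Among the myogenic regulatory factors, *Myf5*, the earliest of them in development, was low. It was at 1.11 and 1.69 FPKM in MCK-TD, against 0.707 and 0.811 FPKM in Con-TD. Both MCK-TD libraries lay above both Con-TD libraries, but they also differed from each other. The log2 change of 0.44 did not pass (95% interval -0.10 to 0.98, limma adjusted p = 0.166). It ran from 0.26 without MCK-TD B to 0.61 without MCK-TD A, and from 0.18 under quantile normalization to 0.78 with a pseudocount of 0.1, and was called in none of these. With a Con-TD mean under 1 FPKM, *Myf5* passed the filter only through MCK-TD.

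*Myod1*, the lineage factor of activated satellite cells that fibres also transcribe, rose 1.76-fold. Its values were 12.1 and 11.5 FPKM in MCK-TD, against 6.29 and 7.09 FPKM in Con-TD. The groups lay apart by far more than their libraries differed, with a log2 change of 0.73 (SE 0.11, limma adjusted p = 0.0169). This call was lost with quantile normalization, where the log2 change was 0.43 (limma adjusted p = 0.0508).

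*Myog*, encoding myogenin, rose 3.49-fold. Its values were 17.2 and 15.1 FPKM in MCK-TD, against 4.59 and 4.68 FPKM in Con-TD. The Con-TD libraries were nearly equal and both MCK-TD libraries stood far above them, with a log2 change of 1.60 (SE 0.11, limma adjusted p = 0.00738). Of all rows tested, 95.6% had a smaller log2 change. *Myog* was below *Cdh15* and *Myod1* in Con-TD and above both in MCK-TD.

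*Myf6* rose 3.21-fold and was the most abundant of the 4 regulatory factors in every library. Its values were 158 and 205 FPKM in MCK-TD, against 57.5 and 55.9 FPKM in Con-TD. The MCK-TD libraries differed from each other, yet the lower one stood far above both Con-TD libraries. The log2 change was 1.65 (SE 0.16, limma adjusted p = 0.00915), close to that of *Myog*. *Myf5* and *Myf6* are neighbouring genes on chromosome 10 of GRCm38.p6, and *Myf6* had 142 and 122 times the FPKM of *Myf5* in MCK-TD, against 81.3 and 68.8 times in Con-TD.

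The 4 regulatory factors summed to 188 and 234 FPKM in MCK-TD, against 69.1 and 68.4 FPKM in Con-TD. *Myf6* made up 83.9% and 87.9% of the sum in MCK-TD, against 83.2% and 81.6% in Con-TD. The ratio of *Myog* to *Myod1* was 1.43 and 1.31 in MCK-TD, against 0.730 and 0.660 in Con-TD, and its groups did not overlap. The ratio of *Myf6* to *Myog* was 9.19 and 13.6 in MCK-TD, against 12.5 and 11.9 in Con-TD, and overlapped. With 2 libraries against 2, an exact permutation test of such a ratio cannot give a two-sided p below 0.333, and none was run.

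**Figure D2:**
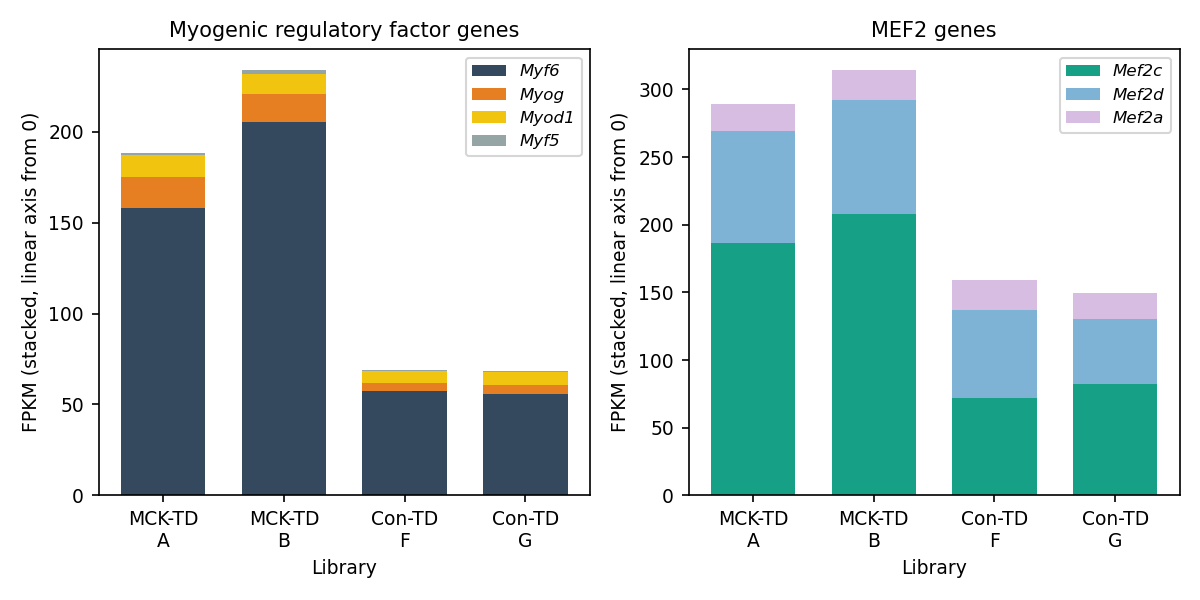
Stacked FPKM (linear axis from 0) of the myogenic regulatory factor genes (left) and the MEF2 genes (right) in each library, MCK-TD left of Con-TD. Both sums are higher in the 2 MCK-TD libraries. *Myf6* makes up most of the first sum in every library, and *Mef2a* a smaller share of the second in MCK-TD (6.85% in each) than in Con-TD (14.2% and 12.8%).

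Of the MEF2 genes, *Mef2c*, a gene needed for ordered sarcomeres in mouse muscle, rose 2.55-fold. Its values were 186 and 208 FPKM in MCK-TD, against 72.1 and 82.5 FPKM in Con-TD. All of the MCK-TD values were above the Con-TD values, with a log2 change of 1.34 (SE 0.12, limma adjusted p = 0.00885). *Mef2c* had the highest mean of the 9 genes in both groups. Its libraries overlapped those of *Myf6*, next in order, in MCK-TD but not in Con-TD.

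*Mef2d*, which is expressed broadly and in mature fibres, was at 83.0 and 84.2 FPKM in MCK-TD, against 64.5 and 47.9 FPKM in Con-TD. The groups lay apart, but the Con-TD libraries differed from each other by nearly as much as the nearer of them lay below MCK-TD. The log2 change of 0.58 missed the threshold (95% interval 0.12 to 1.04, limma adjusted p = 0.0686). *Mef2a* was at 19.8 and 21.5 FPKM in MCK-TD, against 22.5 and 19.2 FPKM in Con-TD, and the groups overlapped. Its log2 change was -0.01 (95% interval -0.35 to 0.33, limma adjusted p = 0.959). In GENCODE vM21, *Mef2a* shares 302 exon bases with *Lysmd4* and *Mef2d* shares 531 with an antisense RNA gene, both on the opposite strand. Whether the libraries keep strand is not given in the sources used here, so reads in those stretches could belong to either gene.

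The ratio of *Mef2c* to *Mef2a* was 9.40 and 9.68 in MCK-TD, against 3.20 and 4.30 in Con-TD. That of *Mef2c* to *Mef2d* was 2.24 and 2.47 in MCK-TD, against 1.12 and 1.72 in Con-TD. Neither ratio overlapped between the groups, and *Mef2c* made up 64.4% and 66.3% of the 3 MEF2 genes in MCK-TD, against 45.3% and 55.1% in Con-TD. *Mef2b*, the remaining gene of the family named after its values were seen, was at no more than 0.0214 FPKM in any library.

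**Figure D3:**
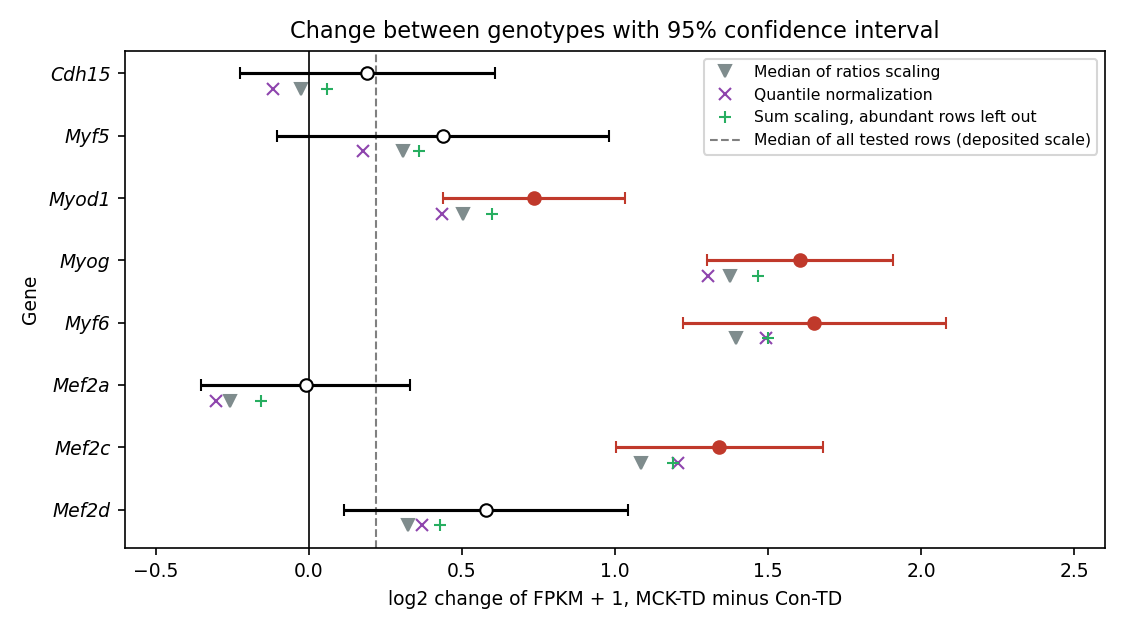
log2 change of FPKM + 1 (MCK-TD minus Con-TD) of the 8 tested genes, with the 95% confidence interval of the limma fit. Filled red points passed an adjusted p of 0.05, and the smaller symbols below each point are the changes under 3 other scalings. *Myog*, *Myf6* and *Mef2c* keep a change above 1 under each of these scalings, while *Cdh15* and *Mef2a* lie near 0 or below it.

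On the deposited scale the rows as a whole lay higher in MCK-TD. The median log2 change of all rows tested was 0.22 as deposited, 0.01 when scaled by the median of ratios, -0.05 under quantile normalization and 0.09 when scaled to a sum without mitochondrial, small RNA and the 20 most abundant other rows. Of all calls, 79.0% were higher in MCK-TD as deposited, 54.8% when scaled by the median of ratios, 48.8% under quantile normalization and 66.0% with the sum scaling. Relative to the median of all rows on the deposited scale, *Myf6* changed by 1.43, *Myog* by 1.39, *Mef2c* by 1.12 and *Myod1* by 0.52, while *Cdh15* changed by -0.03 and *Mef2a* by -0.23.

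With one library left out, a single library of that group is assumed to vary like the other pair. None of the 8 genes was then called, with limma adjusted p between 0.0529 and 0.0857 for *Myf6*, 0.0707 and 0.0825 for *Myog*, 0.0712 and 0.0825 for *Mef2c*, and 0.0871 and 0.117 for *Myod1*. Leaving out library A or B of MCK-TD gave 162 or 123 calls over all rows, and leaving out library F or G of Con-TD gave 62 or 90, against 3837 with all libraries. Of these calls, 95.1% and 93.5% were higher in MCK-TD without library A or B, but 19.4% and 24.4% without library F or G. The log2 change stayed between 1.46 and 1.84 for *Myf6*, 1.52 and 1.69 for *Myog*, 1.25 and 1.44 for *Mef2c*, and 0.66 and 0.81 for *Myod1*.

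Of 23 tested genes known as targets of the myogenic regulatory factors, 13 rose, 3 fell and 7 were not called, where 24.3% of all rows were called higher and 6.45% lower. Their median log2 change was 0.92, against 0.22 over all rows, and 0.48 over the 18 with a mean of at least 5 FPKM. Scaled by the median of ratios 9 rose and 4 fell, under quantile normalization 9 and 3, and with the sum scaling 10 and 3. *Tmem8c*, now named *Mymk* in the RefSeq table and encoding the fusion protein myomaker, was at 8.26 and 10.2 FPKM in MCK-TD, against 0.0826 and 0.265 FPKM in Con-TD (log2 change 3.12, SE 0.17, limma adjusted p = 0.00599). *Gm7325*, now *Mymx* and encoding its partner myomixer, was at 1.86 and 2.40 FPKM in MCK-TD, and listed at 0 and 0.0732 FPKM in Con-TD F and G. Both fusion genes were near the bottom of the scale in Con-TD and clearly above it in MCK-TD. Like *Chrng*, they passed the filter only through MCK-TD, as did *Cxcr4*, *Mdfi*, *Tead4* and *Runx1* in other lists, so they had to differ to be tested.

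Among these targets, *Myl4*, the embryonic myosin light chain (log2 change 5.28), and *Tnnt2*, the fetal and cardiac troponin T (3.35), also rose. The adhesion molecule *Ncam1* (2.55) and the cell cycle inhibitor *Cdkn1a* (2.37) rose as well. *Chrng*, the fetal subunit gene of the acetylcholine receptor, rose and was at 3.50 and 3.54 FPKM in MCK-TD, against 0.145 and 0.0984 FPKM in Con-TD. The adult subunit gene *Chrne*, named after its values were seen, was at 17.5 and 11.6 FPKM in MCK-TD, against 12.4 and 11.8 FPKM in Con-TD, and was not called (limma adjusted p = 0.469). The targets that fell were the creatine kinase *Ckm*, the actin *Acta1* and the receptor-clustering protein *Rapsn*, of which the last was named after its values were seen.

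Partners and inhibitors of the factors were measured in 12 tested genes. Of these 2 rose and 0 fell, where 24.3% of all rows were called higher and 6.45% lower. The counts for the 12 were 2 and 1 when scaled by the median of ratios, and 2 and 2 under quantile normalization. Their median log2 change of 0.25 turned to -0.05 under the latter. *Mdfi*, the MyoD family inhibitor that binds these factors in the cytoplasm, was at 7.35 and 5.74 FPKM in MCK-TD, against 0.584 and 0.333 FPKM in Con-TD (log2 change 2.37, SE 0.18, limma adjusted p = 0.00778). *Id2*, which pairs with E proteins and keeps them from DNA, was at 4.86 and 5.43 FPKM in MCK-TD, against 1.72 and 2.21 FPKM in Con-TD (log2 change 1.06, SE 0.15, limma adjusted p = 0.0147). Both inhibitor genes changed in the same direction as *Myog* and *Myf6*, though *Mdfi* passed the filter only through MCK-TD. From the same list *Id1*, *Bhlhe40* and *Bhlhe41*, named after their values were seen, lay lower in MCK-TD without overlap. Their log2 changes were -0.54, -0.42 and -0.33, and none was called. Of the 16 listed, those under the filter included, MCK-TD lay above without overlap in 7 and below in 3. Over all rows tested, which leave out those under the filter, the shares were 50.7% and 21.3%.

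Factors that act upstream of or beside the regulatory factors split. Of 18 tested, 6 rose and 3 fell, where 24.3% of all rows were called higher and 6.45% lower. The counts for the 18 were 5 and 5 when scaled by the median of ratios, and 4 and 5 under quantile normalization. Their median log2 change of 0.10 turned to -0.11 and -0.18 under those scalings. *Runx1*, known from denervated muscle, averaged 3.82 ± 0.884 FPKM in MCK-TD and 0.241 ± 0.0906 FPKM in Con-TD. *Tead4*, a TEAD factor and a target of MYOD and myogenin, averaged 3.83 ± 0.240 FPKM in MCK-TD and 0.810 ± 0.236 FPKM in Con-TD. Its relative *Tead1* averaged 41.4 ± 6.68 FPKM in MCK-TD and 20.2 ± 1.31 FPKM in Con-TD, and the zinc finger factor gene *Klf5* averaged 3.75 ± 0.599 FPKM in MCK-TD and 1.02 ± 0.169 FPKM in Con-TD. *Eya3*, a transcriptional coactivator of the homeobox factors of that list, averaged 4.31 ± 0.692 FPKM in MCK-TD and 1.95 ± 0.0899 FPKM in Con-TD, and missed the threshold with quantile normalization. The homeobox gene *Six2* fell to 2.80 ± 2.02 FPKM in MCK-TD, against 10.3 ± 1.60 FPKM in Con-TD (limma adjusted p = 0.0473).

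Regulators of MEF2 activity also moved both ways. Of 18 tested, 5 rose and 3 fell, where 24.3% of all rows were called higher and 6.45% lower. The counts for the 18 were 4 and 5 when scaled by the median of ratios, and 4 and 6 under quantile normalization. Their median log2 change of 0.13 turned to -0.07 and -0.14 under those scalings. The calcineurin inhibitor *Rcan1* averaged 83.4 ± 23.8 FPKM in MCK-TD and 18.5 ± 3.23 FPKM in Con-TD, and its relative *Rcan2* averaged 25.7 ± 1.57 FPKM in MCK-TD and 9.88 ± 2.93 FPKM in Con-TD. *Cabin1*, a repressor of calcineurin and of MEF2, averaged 5.55 ± 0.266 FPKM in MCK-TD and 2.30 ± 0.334 FPKM in Con-TD. Genes of 2 calmodulin kinase chains went apart, with *Camk2d* at 32.2 ± 3.93 FPKM in MCK-TD and 11.1 ± 2.09 FPKM in Con-TD, and *Camk2a* at 45.4 ± 4.93 FPKM in MCK-TD and 111 ± 16.3 FPKM in Con-TD. *Hdac9*, a class IIa deacetylase that represses MEF2 and is itself a MEF2 target, rose to 2.74 ± 0.170 FPKM in MCK-TD, against 1.13 ± 0.425 FPKM in Con-TD. That call (limma adjusted p = 0.0434) was lost with each of the other scalings, at limma adjusted p between 0.0570 and 0.0875.

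Of 15 genes known as MEF2 targets, 4 rose and 6 fell, where 24.3% of all rows were called higher and 6.45% lower. The median log2 change of the 15 was -0.26, against 0.22 over all rows. Scaled by the median of ratios 3 rose and 7 fell, with a median of -0.46 against 0.01 over all rows. Under quantile normalization 3 rose and 5 fell, and the median of -0.10 lay close to the -0.05 over all rows. *Kbtbd5*, now *Klhl40* and a stabiliser of nebulin, averaged 108 ± 12.5 FPKM in MCK-TD and 36.2 ± 2.01 FPKM in Con-TD, and the Xin protein gene *Xirp1* averaged 52.7 ± 8.21 FPKM in MCK-TD and 17.4 ± 2.55 FPKM in Con-TD. The orphan nuclear receptor *Nr4a1* fell to 26.1 ± 1.05 FPKM in MCK-TD, against 108 ± 11.1 FPKM in Con-TD. The glucose transporter *Slc2a4*, the glycolytic enzyme *Pgam2* and *Ckm* fell by 1.11, 1.11 and 1.14 on the log2 scale. Known targets of MEF2 stood on both sides of 0.

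Of 16 tested adhesion and fusion genes, 7 rose and 2 fell, where 24.3% of all rows were called higher and 6.45% lower. Those that rose include *Tmem8c* and *Gm7325*, which passed the filter only through MCK-TD and are counted among the targets above too. Besides the fusion genes above, the catenin family member *Jup* averaged 163 ± 5.45 FPKM in MCK-TD and 32.8 ± 3.10 FPKM in Con-TD, the integrin chain *Itgb1* averaged 266 ± 65.8 FPKM in MCK-TD and 65.9 ± 3.92 FPKM in Con-TD, and *Jam2* averaged 17.4 ± 5.47 FPKM in MCK-TD and 5.18 ± 0.942 FPKM in Con-TD. *Cdh4*, another classical cadherin, fell to 1.01 ± 0.653 FPKM in MCK-TD, against 11.3 ± 4.23 FPKM in Con-TD, while *Cdh15* was not called. The 9 calls became 8 with median of ratios scaling, 6 of them higher.

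**Figure D4:**
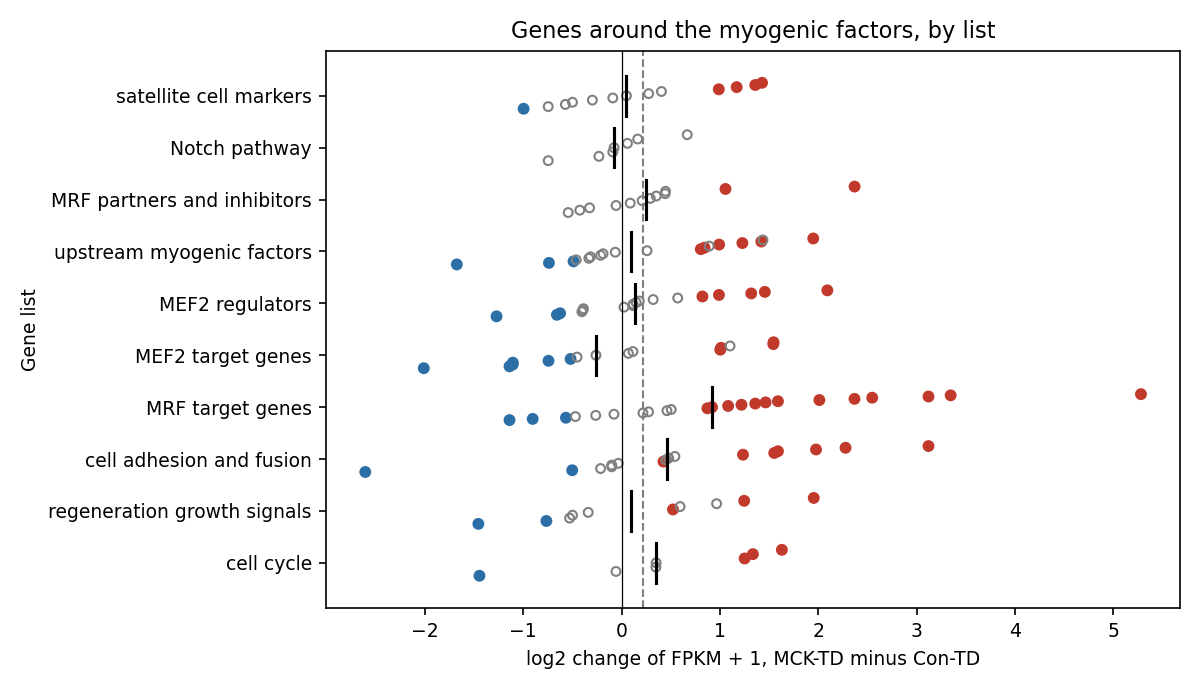
log2 change of FPKM + 1 (MCK-TD minus Con-TD) of the tested genes in 10 lists around the myogenic factors. Filled points passed an adjusted p of 0.05 (red higher, blue lower in MCK-TD), open points did not, black bars are list medians, and the dashed line is the median of all rows at 0.22. The median is 0.92 for targets of the myogenic regulatory factors and -0.26 for MEF2 targets.

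Markers of other cells in the tissue differed between the same libraries. For the counts that follow, the shares over all rows tested were 24.3% called higher and 6.45% called lower in MCK-TD. Of 10 tested macrophage markers, 7 rose and 0 fell, and the 12 listed summed to 213 and 183 FPKM in MCK-TD, against 40.5 and 58.0 FPKM in Con-TD. Of 10 endothelial markers 2 fell and 0 rose, with sums of 39.6 and 28.0 FPKM in MCK-TD, against 47.9 and 62.4 FPKM in Con-TD. The 10 markers of fibro-adipogenic progenitors summed to 162 and 215 FPKM in MCK-TD, against 265 and 329 FPKM in Con-TD, and 3 of 8 tested fell. The 8 Schwann cell markers summed to 20.1 and 28.1 FPKM in MCK-TD, against 48.6 and 65.8 FPKM in Con-TD, and 2 of 4 tested fell. Of 5 tested tendon markers 2 rose, 0 fell and 3 were not called. Their median log2 change was 0.10, against 0.22 over all rows, and turned to -0.18 under quantile normalization. The tendon marker *Thbs4* averaged 78.1 ± 1.68 FPKM in MCK-TD and 15.9 ± 2.80 FPKM in Con-TD. Of 9 tested markers of pericytes and smooth muscle 3 fell and 1, *Des*, rose. The 8 adipocyte markers summed to 203 and 137 FPKM in MCK-TD, against 226 and 464 FPKM in Con-TD, and the 8 neutrophil markers to 12.0 and 12.2 FPKM in MCK-TD, against 19.7 and 7.09 FPKM in Con-TD. None of the 6 and 3 tested in those lists was called. No marker in these lists was listed at 0 in all libraries, and the 10 lymphocyte markers summed to at most 2.05 FPKM in any library. These counts are on the deposited scale. With each of the 3 other scalings 5 macrophage markers rose and 4 endothelial markers fell. Of the fibro-adipogenic progenitor markers 4 or 5 then fell, and of the Schwann cell markers 3 or 4. The part of these cells in the changes of the genes above was not tested.

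A rule based on distance compared log2(FPKM + 1) values over the 4 libraries, centred on the Con-TD mean. Out of 9810 rows compared, those closest to *Myf6* were *Osbpl10*, *Gabrd* and *Mllt11*. Their distances were 0.0638, 0.103 and 0.106 on the log2 scale. *Osbpl10* was at 3.11 and 4.06 FPKM in MCK-TD, against 0.499 and 0.454 FPKM in Con-TD. *Gabrd* was at 2.94 and 3.95 FPKM in MCK-TD, against 0.508 and 0.337 FPKM in Con-TD. *Mllt11* was at 125 and 154 FPKM in MCK-TD, against 42.4 and 45.1 FPKM in Con-TD. *Osbpl10* and *Gabrd* had Con-TD means under 1 FPKM and passed the filter only through MCK-TD. They rose 7.52-fold and 8.15-fold in mean FPKM, against 3.21-fold for *Myf6* and 3.19-fold for *Mllt11*. Their nearness thus holds on a scale that understates the change of low genes.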

How the data were processed

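Per the labels' protocols, total RNA came from a Trizol extraction with DNase digestion. The series' design text adds that BGI enriched mRNA and made and sequenced the libraries. The authors deposited 1 FPKM value per gene and library. The submitters' processing notes list STAR and Cufflinks, with no version or role, and the build mm9. Which annotation was used is not given there. Deposited text notes beside gene names, with no stated reference, were not used.

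Rows with a mean of at least 1 FPKM over the 4 libraries (12474 of 37305) were fitted as log2(FPKM + 1) with limma 3.58.1 under R 4.3.3, genotype group alone, with an intensity trend and 2 residual degrees of freedom. Tests were two-sided with Benjamini-Hochberg adjustment over all rows. Changes are MCK-TD minus Con-TD and folds are ratios of mean FPKM. The fit was run on simulated normal values with planted changes, which checks the code and not how well the model suits these libraries. The relative depth is the commonest between-library ratio among rows above 0 and under 0.2 FPKM, and counts were not recovered.

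The genes and the gene lists (10 around the myogenic factors, 10 for cell types) were chosen with earlier results of these data known. The text names all 9 genes and, per list, up to 6 called genes with the largest change, or, where fewer than 2 were called, enough with the smallest p to make 2; per cell type list the rule takes the 2 most abundant markers, of which not all are printed. Any other gene is said to be named after its values were seen. Alternatives were pseudocounts of 0.1 and 0.5, no filter, a minimum of 5 FPKM, 3 other scalings, no intensity trend, robust empirical Bayes, and leaving out each library. Older symbols were matched through RefSeq's table of GRCm38.p6, and promoter sequences are RefSeq's. No coordinates of the build mm9 are given.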

Additional observations from a re-analysis of the deposited data

How the results depend on the processing

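The directions of *Myog*, *Myf6*, *Mef2c* and *Myod1* held in all 13 alternatives. In the 9 alternatives that keep all libraries, the first 3 were called each time and *Myod1* in 8, with 0.43 under quantile normalization as the exception. Over all rows 2043 were called without a filter on low values, against 3837, and 62 to 162 when a library was left out. Calls among the 9 genes were 0 in every fit without a library, against 4. Of the listed genes, 29 were called without a filter and 1 to 2 without a library, against 64. Uncalled genes changed sign in places. *Cdh15* was at -0.12 under quantile normalization and -0.027 when scaled by the median of ratios. *Mef2a* ran from -0.12 to 0.10 when a library was left out. Why the counts moved was not tested. Fits on fewer libraries also had fewer residual degrees of freedom, and without a filter the adjustment ran over 25620 rows. Of 47 named list genes none changed direction under the 3 other scalings, and *Cxcr4*, *Eya3*, *Hdac9* and *Tgfb2* lost their call under at least 1. No paired analysis was possible because the libraries of the 2 groups carry different letters. The absolute depth is unknown, so no counting interval is given for low genes such as *Pax7*.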

Other observations

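Growth signals for satellite cells and fibres moved in both directions. Of 10 tested, 3 rose and 2 fell, where 24.3% of all rows were called higher and 6.45% lower. Under quantile normalization 2 of the 10 rose and 3 fell, and their median log2 change of 0.09 turned to -0.22. *Igf2*, a fetal growth factor, averaged 31.2 ± 6.88 FPKM in MCK-TD and 7.25 ± 0.891 FPKM in Con-TD (log2 change 1.95, limma adjusted p = 0.00963). The cytokine gene *Tgfb1* averaged 5.62 ± 0.892 FPKM in MCK-TD and 1.78 ± 0.132 FPKM in Con-TD, and *Tgfb2* averaged 8.79 ± 0.651 FPKM in MCK-TD and 5.83 ± 0.721 FPKM in Con-TD, a call lost with each of the other scalings. *Mstn*, encoding the growth inhibitor myostatin, fell to 9.97 ± 1.65 FPKM in MCK-TD, against 29.5 ± 8.63 FPKM in Con-TD, and the WNT receptor gene *Fzd7* fell to 5.30 ± 0.298 FPKM in MCK-TD, against 9.73 ± 1.27 FPKM in Con-TD.

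Of 16 listed cell cycle genes, 7 passed the filter. Of these *Birc5*, *Ccne1* and *Pcna* rose while *Aurka*, a mitotic kinase, fell, where 24.3% of all rows were called higher and 6.45% lower. All 9 under the filter lay higher in MCK-TD without overlap. Of all 16, 13 did so and 1 lay lower without overlap, against 50.7% and 21.3% of all rows tested. No such share was taken over rows under the filter. *Birc5* and *Ccne1* passed the filter only through MCK-TD, so they had to differ to be tested. *Pcna*, the sliding clamp of DNA polymerase, averaged 31.5 ± 3.26 FPKM in MCK-TD and 12.7 ± 0.861 FPKM in Con-TD. *Birc5* averaged 3.14 ± 0.510 FPKM in MCK-TD and 0.335 ± 0.0721 FPKM in Con-TD, and *Ccne1*, cyclin E1, averaged 2.11 ± 0.146 FPKM in MCK-TD and 0.232 ± 0.00323 FPKM in Con-TD. *Aurka* averaged 1.497 ± 0.270 FPKM in MCK-TD and 5.78 ± 0.511 FPKM in Con-TD. The proliferation marker *Mki67*, named after its values were seen, was at 0.264 and 0.183 FPKM in MCK-TD, against 0.0274 and 0.0451 FPKM in Con-TD.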
